A study of Mus musculus with 170 samples.

Results

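Cushion EMT transcription factors are the regulators that act when endocardial cells of the embryonic heart leave the endothelial layer and become the mesenchyme of the valve cushions. This change is an epithelial-to-mesenchymal transition (EMT). The 9 members were taken by name from the 40549 gene rows of a single-cell table and are Snai1, Snai2, Twist1, Zeb1, Zeb2, Msx1, Msx2, Sox9 and Prrx1. No measured value was used to choose them. Single cells came from the dissected ventricle of C57BL/6 hearts at embryonic day 9.5 and were picked by hand and amplified by Smart-seq2, a full-length method that primes on poly(A) tails. Control embryos, labelled wild type, were Dgcr8 loxP/loxP; ROSA26 mT/mG/+ without Cre, so that both Dgcr8 alleles were floxed but intact. Conditional knockout (cKO) embryos, labelled Mesp1Cre/+; Dgcr8-/-, carried the same floxed alleles and reporter together with Cre from the Mesp1 locus, which acts in the early mesoderm that forms heart muscle, endocardium and epicardium. Dgcr8 encodes the protein that holds primary microRNA transcripts for the nuclease Drosha, which cuts out the microRNA hairpins. The table held 74 control cells and 69 cKO cells from 2 sequencing batches.

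In the cushion, BMP and TGF-beta ligands from the myocardium and Notch signals within the endocardium switch on zinc-finger repressors of the Snail and ZEB families. These repressors bind E-boxes and shut down genes of cell junctions such as Cdh5, which encodes VE-cadherin. Twist1, Msx1, Msx2, Sox9 and Prrx1 are further factors of cushion or other mesenchyme, with known roles in proliferation, survival and matrix production. Cushions form at the atrioventricular canal and outflow tract, which are regions other than the dissected ventricle.

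Cells were assigned to classes from 56 markers, none of them a member, and the classes are not the study's own annotation. The classes are CM-like (cardiomyocyte-like), endothelial-like, epicardial-like and erythroid-like. Control cells comprised 34 CM-like, 22 endothelial-like, 13 epicardial-like and 5 erythroid-like cells. The study called fewer cells of each genotype cardiomyocytes. The control CM-like class, the reference for the comparisons below, was mixed. Its cardiac troponin gene Tnnt2 ran from 3.58 to 6506 TPM. The epicardial gene Wt1 was at 1 TPM or more in 15 of the 34 cells, with a highest of 131. The endothelial gene Emcn was so in 2, with a highest of 752. The endothelial-like cluster stood above all other cells in 13 of 13 endothelial and 5 of 14 mesenchymal markers, and the larger of the 2 epicardial-like clusters in 6 of 7 epicardial and 9 of 14 mesenchymal markers. All 69 cKO cells were CM-like, so the cKO gives no endothelial-like or epicardial-like level. Taking a count of 0 to allow 3 cells, 0 of 69 leaves room for up to 4.35% of cells of another class, and picking by hand can set such shares. Values are TPM, which is scaled for transcript length and can be compared between genes, or log2(TPM + 1), and a gene was called detected in a cell at a TPM of at least 1. The labels name no embryo, so each genotype was 1 sample. Every difference was therefore a description without a test, and an SD is the scatter across cells.

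Several features of the cells bear on these values. The control classes were not balanced over the batches. Batches 1 and 2 held 24 and 10 CM-like, 7 and 15 endothelial-like, and 4 and 9 epicardial-like cells. All 5 erythroid-like cells came from batch 2. Class differences over both batches thus mix class and batch in part. The median number of detected genes per cell, the only measure of depth in the table, was 8477 in control CM-like, 8456 in cKO CM-like, 9304 in endothelial-like and 9395 in epicardial-like cells. A group of 11 CM-like cells (8 control and 3 cKO) formed a cluster of their own when the tree was divided into 6. They had a median of 50.7% mitochondrial TPM and 5728 detected genes, so mean differences and list counts that use CM-like cells are also given without these 11 cells. Levels and detection counts include them unless stated otherwise. Xist was detected in none (0) of the 34 control CM-like cells but in 64 of the 69 cKO cells, and the Y-linked gene Ddx3y in 19 of 34 and 0 of 69, so embryo sex and genotype cannot be told apart. Dgcr8 transcripts were found in 15 of the 34 CM-like control cells and in 21 of the 69 cKO cells, and TPM of whole transcripts also counts those that lack the deleted part.

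The members with the largest differences of mean log2(TPM + 1) between control endothelial-like and CM-like cells were Msx1, a homeobox factor induced by BMP signals, and Snai1, the Snail-family repressor of Cdh5 and other junction genes. The place of Snai1 depends on the measure. Sox9 differed by more in batch 1 alone (2.20 against 1.42), with a pseudocount of 0.1 (3.13 against 2.87) and in share of cells detected, and Zeb1 did in batch 1 (1.82). As a log2 ratio of mean TPM, with 1 added to each mean, Snai2 did (3.31 against 2.84). Promoter sequences of these genes are shown because both factors were detected mostly in the same class and both carry the E-box to which Snail and ZEB proteins bind. The sequences are the 250 bases before the annotated start in RefSeq (GRCm38.p6), read 5′ to 3′ on the gene's strand. The Snai1 sequence is chr2:167537945-167538194 on the plus strand, and the Msx1 sequence is chr5:37824586-37824835 on the minus strand. Capitals mark matches to the E-box CANNTG.
Snai1: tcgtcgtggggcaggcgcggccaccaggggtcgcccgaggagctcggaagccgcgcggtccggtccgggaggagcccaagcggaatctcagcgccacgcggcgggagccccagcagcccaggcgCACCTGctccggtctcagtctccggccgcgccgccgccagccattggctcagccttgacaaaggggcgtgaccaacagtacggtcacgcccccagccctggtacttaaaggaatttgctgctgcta
Msx1: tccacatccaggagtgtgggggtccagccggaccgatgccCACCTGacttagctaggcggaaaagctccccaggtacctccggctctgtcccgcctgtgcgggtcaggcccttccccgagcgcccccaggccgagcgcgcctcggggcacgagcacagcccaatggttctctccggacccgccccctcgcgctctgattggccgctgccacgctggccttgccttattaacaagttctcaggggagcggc

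Each of these promoters held 1 E-box, with its first base at position -126 in Snai1 and -210 in Msx1 relative to the start. Both matches read CACCTG, the reverse complement of CAGGTG. The E-box CANNTG was searched on both strands and contains CAGGTG as a special case. Of 32536 promoter windows of the same length, 66.2% held CANNTG and 17.3% held CAGGTG on either strand. RefSeq entries were matched for 6 of the 9 members (Snai1, Twist1, Zeb2, Msx1, Msx2 and Prrx1), and Snai2, Zeb1 and Sox9 had none in the table used. Msx2 had 1 E-box at position -79, of the form CAGTTG, and the window of Twist1, the window of Prrx1 and the 4 windows of Zeb2 held none. These are matches of letters and were not tested as binding sites.

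Snai1 (chromosome 2, 167538195 to 167542814, plus strand, GRCm38) was detected in 9 of 22 control endothelial-like cells, or 40.9% (exact 95% interval 20.7 to 63.6%), and in 3 of 34 CM-like cells, or 8.82% (1.86 to 23.7%). The intervals cover counting error only. Its TPM in endothelial-like cells ran from 0 through a median of 0 to 98.6, and in CM-like cells the highest value was 22.3. The mean log2(TPM + 1) was 2.19 ± 2.73 (SD across cells, n = 22) and 0.40 ± 1.28 (n = 34). Most endothelial-like cells thus had no detected Snai1, while the 9 that did had a median TPM of 43.6. The difference of 1.78 in mean log2(TPM + 1) was 1.42 in batch 1, 1.57 in batch 2 and 1.66 without the mitochondrial-rich cells. Snai1 was also detected in 2 of 13 epicardial-like and 1 of 5 erythroid-like cells.

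Msx1 (chromosome 5, 37820485 to 37824583, minus strand) was detected in 12 of 22 endothelial-like cells, or 54.5% (32.2 to 75.6%), and in 0 of 34 control CM-like cells, a count that allows up to 8.82% of cells by the limit of 3 cells and 10.3% by the exact interval. In CM-like cells its highest TPM was 0.587. In endothelial-like cells the TPM ranged from 0 to 234 with a median of 7.26. The groups overlapped only among the 10 endothelial-like cells in which Msx1 was not detected. Mean log2(TPM + 1) was 2.66 ± 2.70 in endothelial-like and 0.06 ± 0.16 in CM-like cells, a difference of 2.59 that was 3.30 in batch 1, 2.27 in batch 2 and 2.58 without the mitochondrial-rich cells. Only 1 of 13 epicardial-like cells (35.8 TPM) and 1 of 5 erythroid-like cells (14.9 TPM) had it.

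**Figure D1:**
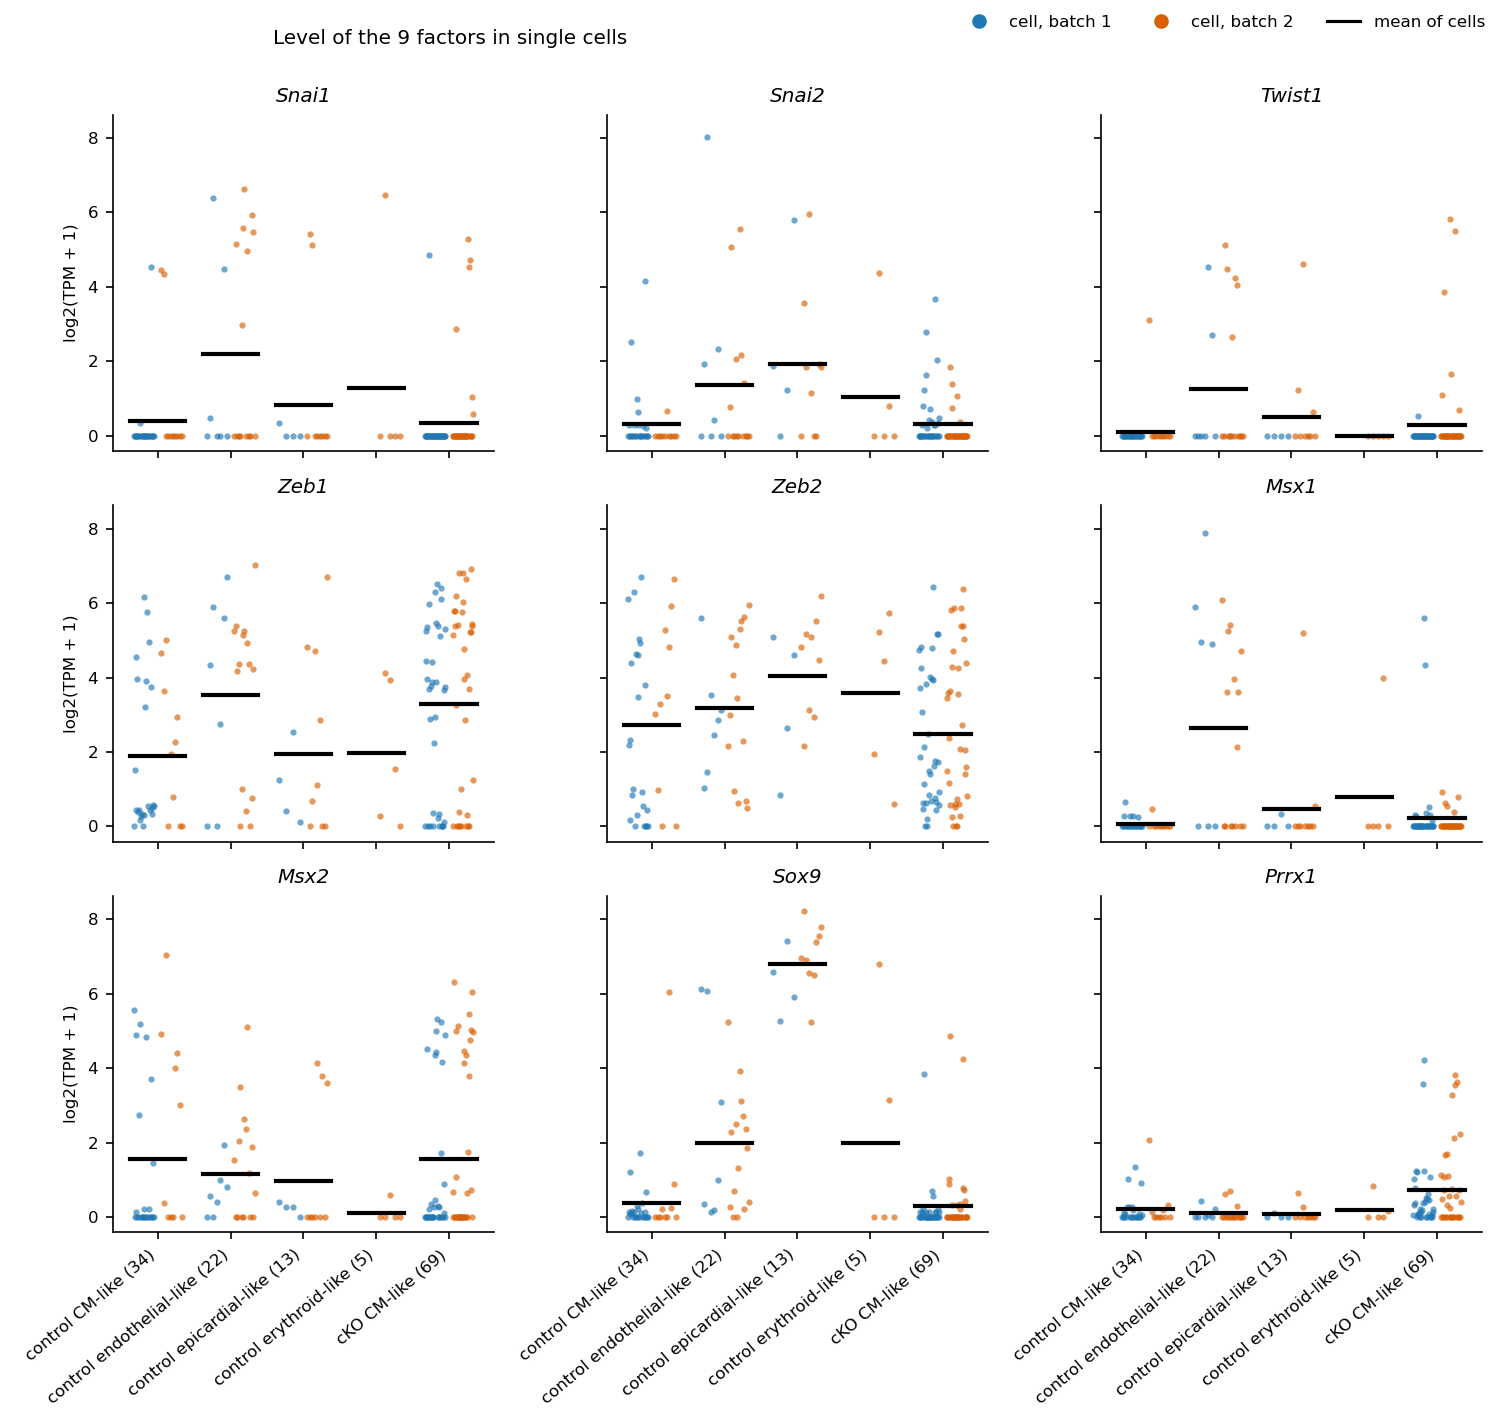
Level of each factor as log2(TPM + 1) on the vertical axis in each cell (points, coloured by sequencing batch) of the 4 control classes and of cKO CM-like cells, with the number of cells in parentheses and a bar at the mean of the cells. Sox9 lay high in all 13 epicardial-like cells, Msx1 was high in 12 of 22 endothelial-like cells and at most 0.587 TPM in control CM-like cells, and Zeb1 had more high cells in the cKO than in control CM-like cells.

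Snai2, the Slug repressor, and Twist1, a basic helix-loop-helix factor of mesenchyme, were detected in smaller numbers of endothelial-like cells. Snai2 (chromosome 16, 14705852 to 14709385, plus strand) was detected in 8 of 22 endothelial-like cells, 9 of 13 epicardial-like cells and 2 of 34 control CM-like cells. The highest TPM in these classes was 258, 60.6 and 16.7. The order of mean log2(TPM + 1) was epicardial-like 1.93 ± 2.03, endothelial-like 1.35 ± 2.20, erythroid-like 1.04 ± 1.89 and CM-like 0.30 ± 0.83, and each step was smaller than the scatter across cells. Unlike Snai1, Snai2 had a higher share in epicardial-like (69.2%, 38.6 to 90.9%) than in endothelial-like cells (36.4%, 17.2 to 59.3%), and those intervals overlap. Among detecting cells its level was low, with a median TPM of 3.73 in endothelial-like and 2.63 in epicardial-like cells.

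Twist1 (chromosome 12, 33957671 to 33959829, plus strand) was detected in 7 of 22 endothelial-like cells, 2 of 13 epicardial-like cells, 0 of 5 erythroid-like cells and 1 of 34 control CM-like cells. Its highest TPM was 33.7 in endothelial-like and 7.61 in CM-like cells. The difference of mean log2(TPM + 1) between these classes was 1.17, with 1.04 and 1.06 within the batches and 1.14 without the mitochondrial-rich cells. Twist1 did not pass the filter applied to all genes, a TPM above 0 in more than 10 of the cells compared. All 7 endothelial-like cells with Twist1 also had Zeb1. At least 1 of Snai1, Snai2 and Twist1 was detected in 16 of 22 endothelial-like cells and in 4 of 34 control CM-like cells.

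Zeb1 and Zeb2, the ZEB-family repressors, were present in every class. Zeb1 was detected in 15 of 22 endothelial-like, 7 of 13 epicardial-like, 3 of 5 erythroid-like and 15 of 34 control CM-like cells. Its mean log2(TPM + 1) was 3.53 ± 2.42 in endothelial-like, 1.98 ± 1.96 in erythroid-like, 1.94 ± 2.23 in epicardial-like and 1.89 ± 2.01 in CM-like cells. The steps between the lower 3 classes were smaller than the scatter. The difference of 1.63 between endothelial-like and CM-like cells fell to 1.15 without the mitochondrial-rich cells, with 1.36 in batch 1 and 0.83 in batch 2. Across the 74 control cells Zeb1 had a Spearman correlation of 0.43 with the number of detected genes, the highest such value among the 8 members that were detected in at least 10 control cells. These cells share their libraries and depth, and the part of depth in the Zeb1 levels was not tested.

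Zeb2 (chromosome 2, 44983632 to 45117395, minus strand) was detected in 18 of 22 endothelial-like, 12 of 13 epicardial-like, 4 of 5 erythroid-like and 19 of 34 control CM-like cells. It was the most widely detected member. Median TPM was 7.33 in endothelial-like, 23.2 in epicardial-like, 20.8 in erythroid-like and 5.58 in CM-like cells, with highest values of 61.1, 72.8, 52 and 102, so that all classes overlapped. Mean log2(TPM + 1) was highest in epicardial-like cells at 4.05 ± 1.56. The epicardial-like minus CM-like difference was 1.34 (0.85 and 1.04 within batches), and 1.01 without the mitochondrial-rich cells. The endothelial-like minus CM-like difference was 0.47, close to the median of 0.49 over all genes tested in that comparison. Within batches 1 and 2 the Zeb2 difference was 0.42 and -0.01. It was 0.14 without the mitochondrial-rich cells, beside a median of 0.25.

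Msx2, the paralogue of Msx1, did not follow it. Msx2 (chromosome 13, 53466884 to 53473074, minus strand) was detected in 12 of 34 control CM-like cells, 10 of 22 endothelial-like, 3 of 13 epicardial-like and 0 of 5 erythroid-like cells. In the detecting CM-like cells the median TPM was 23.9 and the highest 130, against 2.96 and 33.3 in the detecting endothelial-like cells. The share of cells detected was 45.5% in endothelial-like and 35.3% in CM-like cells, and 42.3% in CM-like cells without the mitochondrial-rich ones. Within batch 1 it was 28.6% and 29.2%. Mean log2(TPM + 1) was 1.16 ± 1.36 in endothelial-like and 1.55 ± 2.24 in CM-like cells. The endothelial-like minus CM-like difference was -0.39 in mean log2(TPM + 1), with -0.54 in batch 1 and -0.98 in batch 2. Without the mitochondrial-rich cells it was -0.75, with -0.94 and -1.20 within batches. Both Msx genes were detected together in 6 of the 22 endothelial-like cells.

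Sox9, an HMG-box factor of cushion and cartilage progenitors and of epicardial cells that undergo EMT, was highest in the epicardial-like class. Sox9 (chromosome 11, 112782224 to 112787760, plus strand) was detected in all 13 epicardial-like cells, with a lowest TPM of 37, a median of 120 and a highest of 297. In control CM-like cells it was detected in 3 of 34, with 1 batch 2 cell at 64.7 and a highest value of 2.28 in batch 1. One CM-like cell thus reached the epicardial-like range. The mean log2(TPM + 1) of 6.80 ± 0.92 in epicardial-like cells stood 6.43 above CM-like cells (6.08 and 6.29 within batches, and 6.41 without the mitochondrial-rich cells). Endothelial-like cells had lower values, with 12 of 22 cells detected, a median TPM of 2.06, a highest of 68.6 and a mean log2(TPM + 1) of 2.00 ± 1.96, and 2 of those 22 cells reached the epicardial-like range. The endothelial-like minus CM-like difference was 1.62, with 2.20 in batch 1, 1.06 in batch 2 and 1.60 without the mitochondrial-rich cells. In erythroid-like cells Sox9 was detected in 2 of 5, with a highest TPM of 112, which lies in the epicardial-like range, and a mean log2(TPM + 1) of 1.99 ± 3.02.

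Prrx1, a paired-related homeobox factor of limb, craniofacial and other mesenchyme, was nearly absent from control cells. Prrx1 (chromosome 1, 163245119 to 163313710, minus strand) was detected in 3 of 34 CM-like cells with a highest TPM of 3.22. It was detected in 0 of 22 endothelial-like cells, which allows up to 13.6%, and in 0 of 13 epicardial-like and 0 of 5 erythroid-like cells, which allow up to 23.1% and 60%. Values above 0 but under 1 TPM occurred in 6 endothelial-like and 3 epicardial-like cells.

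**Figure D2:**
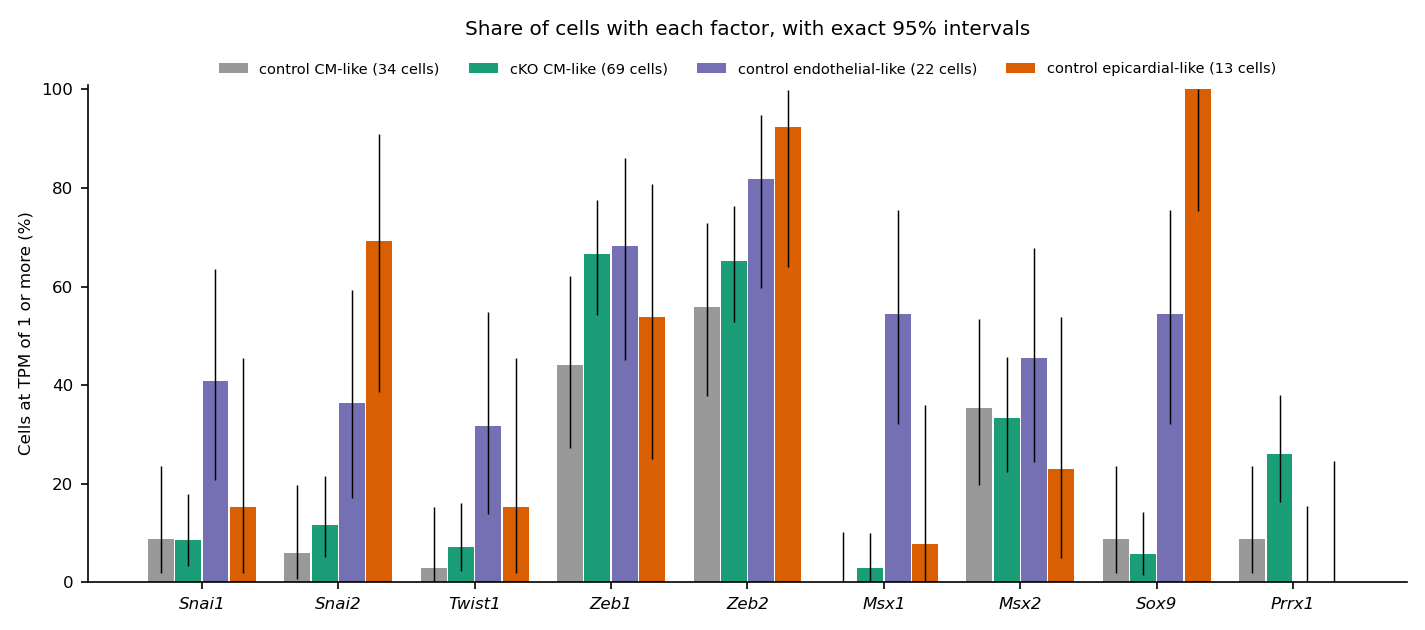
Percentage of cells at a TPM of 1 or more for each factor in control CM-like, cKO CM-like, control endothelial-like and control epicardial-like cells, with exact 95% binomial intervals for counting error as vertical lines. Msx1 stood at 54.5% of endothelial-like cells and Sox9 at all 13 epicardial-like cells, while Zeb1 was at 44.1% of control and 66.7% of cKO CM-like cells. Without the mitochondrial-rich cells, which are included here, the Zeb1 shares were 57.7% and 69.7%.

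Counted over the list, 8 of the 9 members passed the filter in the endothelial-like against CM-like comparison. Of these, 5 (Snai1, Snai2, Zeb1, Msx1 and Sox9) were higher in endothelial-like cells by at least 1 log2 unit of the mean and 0 were lower by that much. The background over 13436 genes was 31.8% higher and 4.79% lower. Without the mitochondrial-rich cells the count was 4, because Snai2 moved to 0.99. The median of the 8 members was 1.34, beside 0.49 over all genes, and 1.07 beside 0.25 without those cells. In epicardial-like against CM-like cells 6 members passed the filter, and 3 (Snai2, Zeb2 and Sox9) were higher by that much, with and without the mitochondrial-rich cells. The background with all cells was 33.5% higher and 4.50% lower among 12303 genes. In neither comparison were background shares computed without the mitochondrial-rich cells, so counts without them have no matching share. The median of those 6 members was 0.69, beside 0.54 over all genes, and 0.41 beside 0.24 without the mitochondrial-rich cells. The filter keeps a gene through whichever class holds it, so these counts are not counts of all members.

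The related genes of the pathway were read from lists without the members. Of the receptors and signal transducers of BMP, TGF-beta and Notch, 12 of the 15 that passed the filter were higher in endothelial-like cells by at least 1 log2 unit and 0 were lower, and 9 were higher without the mitochondrial-rich cells. The 3 largest differences were in Eng, the TGF-beta co-receptor endoglin (7.54, and 7.48 without those cells), Notch1 (4.19 in both cases) and the BMP receptor Acvr1 (3.66 and 3.43). The 3 smallest were in Smad3 (0.01 and -0.23), Bmpr1a (0.22 and -0.45) and Smad1 (0.65 and 0.39). The first 2 had opposite directions in batches 1 and 2, with 1.72 and -1.57 for Smad3 and 2.06 and -1.55 for Bmpr1a. Smad1 had 0.59 and 0.10. Of the 8 ligands that passed, 2 were higher, the Notch ligand Dll4 (2.15 in both cases) and Wnt4 (2.10 and 1.99), and 2 were lower, Bmp7 (-2.59 and -3.56) and Bmp5 (-2.06 and -2.78). CM-like cells thus had higher means of these BMP ligands.

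Of 16 other transcription factors of the cushion, 6 were higher and 1 was lower in endothelial-like cells, and without Nfatc1, which served as a class marker, 5 of 15 were higher, near the 31.8% of all genes. Leaving out the mitochondrial-rich cells gave 5 of 16 higher and 3 lower. Id3, an inhibitor of helix-loop-helix factors induced by BMP, differed by 5.53 (5.09 without those cells) and the Notch target Hey1 by 2.71 (2.58). Prrx2, the paralogue of Prrx1, differed by -1.06 (-1.41). Of the mesenchymal products that were not class markers, 4 of 7 were higher and 3 lower, with and without those cells. Fibronectin (Fn1) differed by 5.48 (5.08) and vimentin (Vim) by 4.47 (3.94), while smooth muscle actin (Acta2) differed by -6.15 (-7.13), Cdh2 by -4.00 (-5.23) and Col2a1 by -2.92 (-3.77). Junction genes that were not class markers were F11r at 3.14 (2.52), Tjp1 at 1.16 (0.87) and Cgn at 0.23 (0.04). Markers of heart muscle were also present in endothelial-like and epicardial-like cells. Of the 15 class markers of cardiomyocytes, 13 were detected in most cells of either class. Their summed TPM ran from 144 to 31837 with a median of 822 in endothelial-like cells. In epicardial-like cells it ran from 1433 to 6214 with a median of 4456, and the median in control CM-like cells was 58187.

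Co-detection was then read in single control cells. A cell was counted as having endothelial genes with at least 3 of the 6 genes Pecam1, Cdh5, Tek, Kdr, Tie1 and Emcn at a TPM of at least 1. These genes encode adhesion molecules, receptor kinases and the sialomucin endomucin, and they were among the class markers. Pecam1 alone reached that TPM in 33 of 34 control CM-like, all 13 epicardial-like and all 69 cKO cells, so it set few cells apart. The rule held in 29 of 74 control cells, namely all 22 endothelial-like cells, 2 CM-like, 3 epicardial-like and 2 erythroid-like cells. Cdh5 was below 1 TPM in each of those outside the endothelial-like class, so the rule does not establish that they are endothelial. Of these 29 cells, 27 had at least 1 member (93.1%), and all 27 had at least 2. Of the other 45 control cells, 36 (80%) also had at least 1 member.

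Msx1 and Twist1 lay mostly in cells with endothelial genes. Msx1 was detected in 12 of the 29 cells (41.4%, 23.5 to 61.1%) and in 2 of the other 45 (4.44%). For Twist1 the counts were 8 of 29 and 2 of 45, and for Snai1 10 of 29 and 5 of 45. Read the other way, 85.7% of the 14 control cells with Msx1, 80% of the 10 with Twist1 and 66.7% of the 15 with Snai1 had endothelial genes. Within batch 1 all 4 cells with Msx1 and both cells with Twist1 had them, and within batch 2 it was 8 of 10 and 6 of 8. Of all control cells, 8 of 35 in batch 1 and 21 of 39 in batch 2 had endothelial genes. In batch 1 Snai1 was in 2 of the 8 cells with endothelial genes and 1 of the 27 others. In batch 2 it was in 8 of 21 and 4 of 18, or 38.1% and 22.2%.

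The remaining members were spread more evenly. Snai2 was detected in 10 of 29 and 10 of 45 cells, Sox9 in 16 and 14, and Msx2 in 12 and 13. Zeb1 was in 19 of 29 and 21 of 45, and Zeb2 in 23 and 30. The 14 cells with Sox9 but no endothelial identity included 10 of the 13 epicardial-like cells. Prrx1 was in 0 of 29 cells and 3 of 45.

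**Figure D3:**
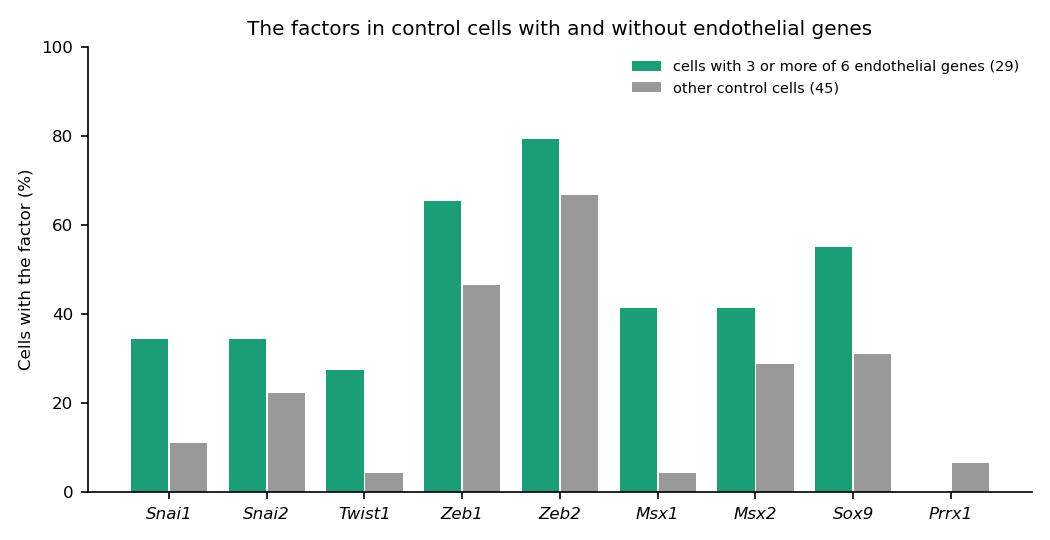
Percentage of control cells in which each factor was at a TPM of 1 or more, in the 29 cells with 3 or more of 6 endothelial genes (green) and in the 45 others (grey). Msx1, Twist1 and Snai1 had the largest ratios between the green and grey bars, and Prrx1 was found in the grey group only.

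Members were detected beside endothelial genes in single endothelial-like cells. The endothelial genes were class markers, so their presence in the class was fixed by how it was formed, and a cell that lacked them would fall outside it. Pecam1, Cdh5 and Tek were at a TPM of at least 1 in all 22 endothelial-like cells, with Cdh5 at 9.80 TPM or more. The number of members per cell in that class ran from 2 to 7 with a median of 4, beside a median of 2 in CM-like cells of either genotype, 4 in epicardial-like and 2 in erythroid-like cells. A batch 1 cell with 7 members had Snai1 at 21.4, Snai2 at 3.99, Twist1 at 5.55, Zeb1 at 47.9, Zeb2 at 6.20, Msx1 at 29 and Msx2 at 2.84 TPM, together with Cdh5 at 72.8 and Emcn at 470 TPM. This cell had 14139 detected genes, the most of any control cell. A batch 2 cell with 7 members, at 9338 genes, had Snai1 at 30.3, Twist1 at 17.8 and Sox9 at 7.68 TPM with Cdh5 at 34.9 and Emcn at 268 TPM, and no Msx1.

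Pairs of members shared cells to different degrees among the 22 endothelial-like cells. Snai1 and Snai2 were detected together in 4 cells, which is 4 of the 9 with Snai1 and 4 of the 8 with Snai2. Msx1 and Sox9 shared 7 cells of 12 each. Snai1 and Msx1 shared 4 cells, of 9 and 12. All 8 cells with Snai2 also had Zeb2, which was in 18 of the 22.

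**Figure D4:**
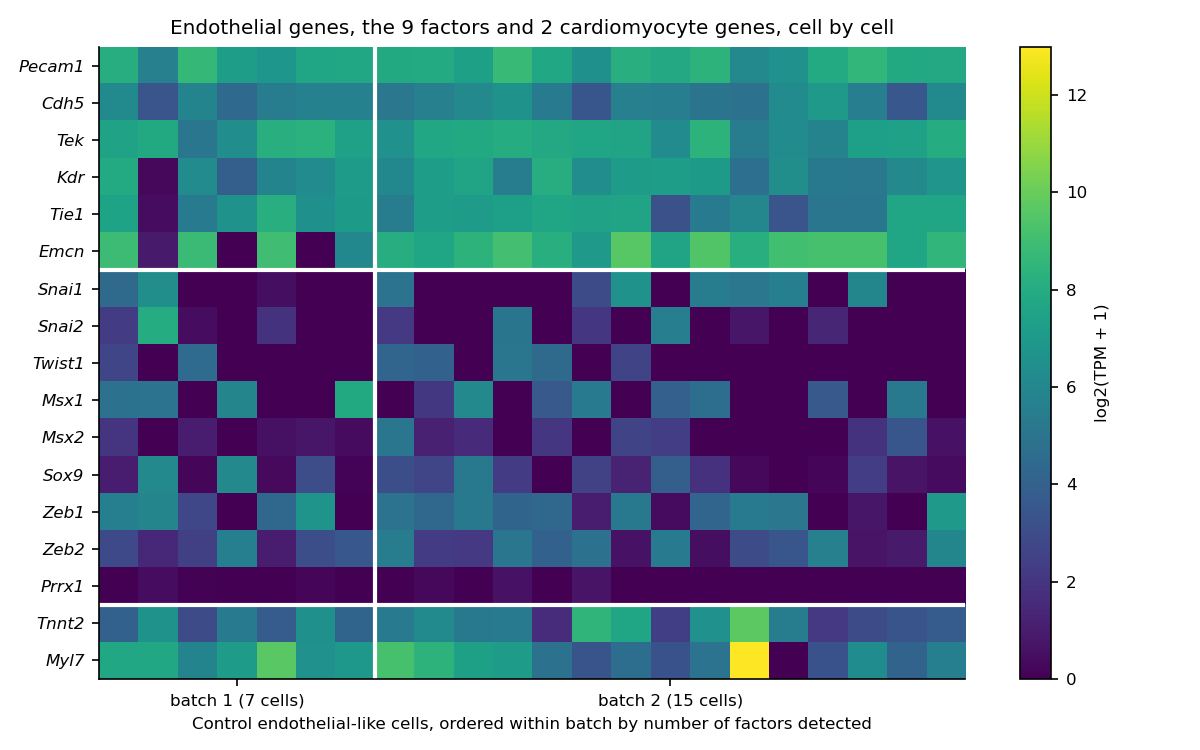
Heat map of log2(TPM + 1) in the 22 control endothelial-like cells (columns, by batch and then by the number of factors detected) for 6 endothelial genes, the 9 factors and the cardiomyocyte genes Tnnt2 and Myl7 (rows). Pecam1, Cdh5 and Tek filled every column, whereas each factor except Zeb1 and Zeb2 was below 1 TPM in at least 10 of the 22 cells.

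In cKO against control CM-like cells, which compares the factors in heart muscle cells of both genotypes, 8 of the 9 members passed the filter. One of them, Zeb1, was higher by at least 1 log2 unit and 0 were lower by that much, against a background of 12.4% higher and 2.32% lower over 15247 genes. The median of the 8 members was 0.00, beside 0.17 over all genes. Without the mitochondrial-rich cells the medians were -0.07 and 0.04, and Zeb1 remained the only member past 1 log2 unit.

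Zeb1 was detected in 46 of 69 cKO cells, or 66.7% (54.3 to 77.6%), and in 15 of 34 control CM-like cells, or 44.1% (27.2 to 62.1%). Median TPM was 13.7 in the cKO and 0.479 in the control, with highest values of 119 and 70.3, so the groups overlapped over most of their range. Mean log2(TPM + 1) was 3.29 ± 2.51 and 1.89 ± 2.01. The difference of 1.40 was smaller than the scatter across cells of either group, with 1.28 and 1.39 in batches 1 and 2. Leaving out the mitochondrial-rich cells gave 1.06, with 1.00 and 0.96 within batches. In that subset the median number of detected genes was 9309 in control and 8686 in cKO cells. Detection there was 46 of 66 cKO cells (69.7%) and 15 of 26 control cells (57.7%), with a median TPM of 14.2 and 3.34. In cells with a TPM of at least 1, the median was 36.9 in the cKO and 14 in the control.

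Zeb2, which shares targets and zinc fingers with Zeb1, differed by -0.23 in mean log2(TPM + 1), with -0.15 in batch 1 and -0.67 in batch 2, and by -0.46 without the mitochondrial-rich cells. Detection was 45 of 69 against 19 of 34 cells. Median TPM was 2.64 and 5.58. The share of cells with Zeb2 was higher in the cKO while its mean log2 level was lower, and the cKO share lay within the control interval of 37.9 to 72.8%.

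Zeb1 and Zeb2 are textbook targets of the microRNA-200 family, so the family's sequences and their matches are shown beside the genotype comparison. Mature microRNAs are not read by a poly(A) method and were not measured here. The 5 rows named for hairpins of the family were at 0 in all 143 cells. The mature sequences below are from RefSeq (GRCm38.p6), 5′ to 3′, with the seed (bases 2 to 8) in capitals, and fall into 2 groups by seed.
mmu-miR-200b-3p: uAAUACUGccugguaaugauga
mmu-miR-200c-3p: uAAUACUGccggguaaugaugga
mmu-miR-429-3p: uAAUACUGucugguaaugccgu
mmu-miR-200a-3p: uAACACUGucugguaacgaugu
mmu-miR-141-3p: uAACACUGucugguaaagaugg

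In the longest annotated 3′ untranslated region (UTR) of each gene in GENCODE M21, the complement of the first seed is CAGTATT and that of the second CAGTGTT. Zeb1 held 5 and 4 of these in 2401 bases, and Zeb2 also held 5 and 4, in 4941 bases. At least 1 match was present in 26% of 20797 genes, and 5 or more in 0.31%. Among the 4147 genes with a 3′ UTR of at least 2401 bases, 60.4% had 1 or more and 1.52% had 5 or more. Snai2 had 2 matches, Snai1 had 1, and Twist1, Msx1, Msx2, Sox9 and Prrx1 had 0. One Zeb2 match of each kind is shown as transcribed, with the complement of the seed in capitals, at chr2:44988173-44988202 and chr2:44987825-44987854 on the minus strand (GRCm38).
Zeb2 CAGTATT match: aggtgcccgcactaccatacatCAGTATTt
Zeb2 CAGTGTT match: ctctgcaagtgccatccttgtaCAGTGTTc

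Zeb1 and Zeb2 held the same number of seed matches, in 3′ UTRs of 2401 and 4941 bases. Between the genotypes Zeb1 differed by 1.40 and Zeb2 by -0.23 in mean log2(TPM + 1). Both values were smaller than the scatter across cells of either group. With a pseudocount of 0.1 they were 1.62 and 0.06, so the direction for Zeb2 depends on the pseudocount. The matches are letters in an annotation, and their part in the difference of either gene was not tested.

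Prrx1 had the next largest difference of mean log2(TPM + 1). It was detected in 18 of 69 cKO cells, or 26.1% (16.3 to 38.1%), and in 3 of 34 control CM-like cells, or 8.82% (1.86 to 23.7%). Its level was low throughout, with highest TPM values of 17.7 and 3.22, and mean log2(TPM + 1) was 0.72 ± 1.07 and 0.22 ± 0.46. The difference of 0.50 was 0.36 in batch 1 and 0.61 in batch 2, and 0.48 without the mitochondrial-rich cells. The pseudocount of 1 damps a difference at this level. The log2 ratio of mean TPM was 1.00, and it also adds 1 to each mean, so it is damped as well. By that ratio Twist1, at 1.15, stood above Prrx1, and Msx1 was at 0.95, both from few cells with the factor detected. The order of these genes without the added 1 was not computed.

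Mean log2(TPM + 1) of the remaining members differed by 0.19 for Twist1, 0.16 for Msx1, 0.00 for Snai2, -0.06 for Snai1 and -0.07 for Sox9. Without the mitochondrial-rich cells the values were 0.17, 0.15, -0.05, -0.16 and -0.08. Detection was 5 of 69 against 1 of 34 cells for Twist1, 2 against 0 for Msx1, 8 against 2 for Snai2, 6 against 3 for Snai1 and 4 against 3 for Sox9. For Msx2 the counts were 23 of 69 and 12 of 34 cells, with a mean of 1.55 in both. Its difference was -0.29 without the mitochondrial-rich cells and -0.48 in batch 2. All 5 cKO cells with Twist1 came from batch 2, as did 5 of the 6 with Snai1, and both cKO cells with Msx1 came from batch 1.

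**Figure D5:**
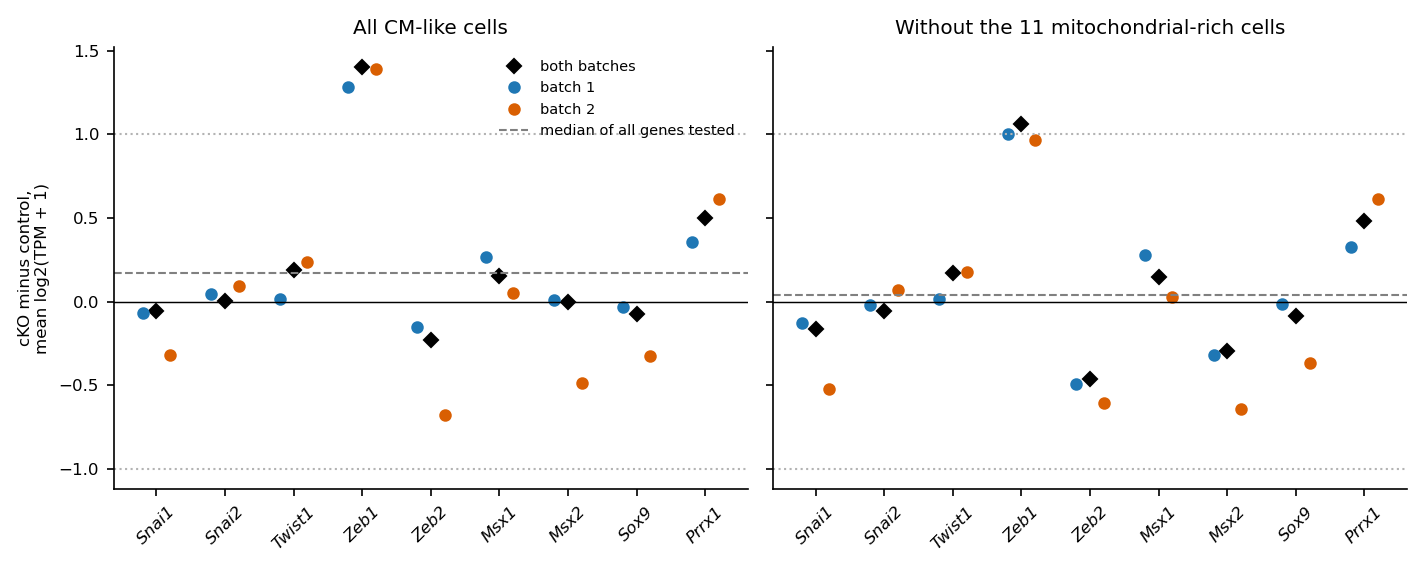
Difference of mean log2(TPM + 1), cKO minus control CM-like cells, for each factor in both batches together (diamonds) and within each batch (circles), with all cells (left) and without the 11 mitochondrial-rich cells (right). The dashed line is the median of all genes tested and the dotted lines lie at 1 and -1, and Zeb1 reached the upper one at 1.40 with all cells and 1.06 without the 11.

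In the cKO, 3 of 69 cells had at least 3 of the 6 endothelial genes, all in batch 2, and none of them had Cdh5. These cells held 7, 4 and 5 members. The first had Twist1 at 13.6, Snai1 at 6.31 and Sox9 at 27.9 TPM with Tek at 149 TPM, the second had Twist1 at 44.6 and Prrx1 at 10.7 TPM, and the third had Snai1 at 21.9 and Sox9 at 18 TPM. Their Tnnt2, which encodes cardiac troponin T, lay between 3092 and 3849 TPM.

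In cKO against control CM-like cells, 12.4% of all genes tested were higher by at least 1 log2 unit and 2.32% lower. These shares were not computed without the mitochondrial-rich cells. Of the pathway lists, 6 of the 11 mesenchymal products that passed the filter were higher in the cKO and 0 lower, and 4 were higher without the mitochondrial-rich cells. Leaving out class markers, 5 of 6 were higher, and 3 without those cells. The largest were Fn1 (2.5, and 2.26 without those cells), Acta2 (2.18 and 1.21) and Vim (1.98 and 1.54). The smallest of the 11 were Mmp2 (0.06 and 0.07), Col3a1 (0.13 and 0.26) and Pdgfra (0.34 and 0.30). Among the higher genes, Acta2, Cdh2 and Col2a1 were lower in control endothelial-like than in CM-like cells (-6.15, -4.00 and -2.92), while Fn1 and Vim were higher. The count thus does not separate mesenchymal from heart muscle expression. Of 17 other transcription factors of the cushion 7 were higher, and 3 without the mitochondrial-rich cells. Gata4, which encodes a zinc-finger regulator of heart genes, differed by 2.12 (1.48 without those cells), Prrx2 by 1.44 (1.11) and Id2 by 1.33 (0.47). Of 9 ligands 2 were higher in either case, Tgfb2 (3.31 and 2.75) and Bmp7 (2.31 and 1.58). Of 14 receptors and transducers 2 were higher and 0 lower, or 1 higher and 2 lower without those cells. The higher genes were Ctnnb1 (1.51 and 1.07) and Bmpr1a (1.34 and 0.84), and Bmpr1a differed by 2.10 in batch 1 and -0.09 in batch 2. Tgfbr3 and Smad5 differed by -0.90 and -0.82, and by -1.28 and -1.20 without those cells. Of 6 junction genes 1 was higher, F11r at 1.51 (1.09). The counts of higher receptors and junction genes lie near the 12.4% of all genes.

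Genes whose pattern across the 74 control cells was most like that of each member were ranked by Spearman correlation of log2(TPM + 1) among 12680 genes detected in at least 10 of those cells. Sox9 had the closest neighbours, S100a10 (0.75), Peg10 (0.75) and Pcsk5 (0.72). For the other 7 members with enough cells the highest correlation lay between 0.52 for Snai1 and 0.61 for Twist1, values which in sparse data single out no gene. The cells share libraries and classes, and the correlations are descriptions.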

How the data were processed

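Single cells of E9.5 ventricles were compared between 4 control classes and between 2 genotypes. The deposited values are TPM per gene, made by the authors with Salmon on the mm10 build, per the labels and the study's methods. The Salmon version and annotation are not given in the sources used here. Per the study's methods, poorly mapping cells were dropped, as were cells with the wrong reporter colour. TPM sums ran from 996133 to 999999 per cell, so depth is unknown, and reads carried no molecular identifiers, so intervals cover counting error only. Of 170 labelled samples, 143 had a column, all of which were used, and 27 were not analysed here. No doublet caller was run, since cells were picked by hand.

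Values were taken as log2(TPM + 1). Cells of both genotypes were clustered by Ward linkage on z-scored values of 56 markers (15 cardiomyocyte, 13 endothelial, 14 mesenchymal, 7 epicardial and 7 erythroid), in 5 clusters. Clusters were named for the class best represented by markers that were detected in most of the cluster and exceeded the remaining cells by 1 log2 unit or more. A name needed 3 such markers and no other class ahead among the top 10 genes. These thresholds were set with values known. Only genes above 0 TPM in over 10 of the compared cells were counted, and 1 log2 unit was the size used for calls. Shares have exact Clopper-Pearson 95% intervals, and a count of 0 was taken to allow 3 cells of the total. The labels name no embryo, so no test was run. Named genes were all 9 members and, of each pathway list, genes among the 3 highest and 3 lowest differences, or, where those were class markers, the remaining junction genes. Members, lists and markers were chosen with earlier results of these data known. Alternatives changed the pseudocount (0.1 or 10), the detection limit, batches, cells, filter and clustering. The code for differences and class names was tested on simulated cells with known answers, of which no value is given. Python 3.11.15, numpy 2.4.6, pandas 2.3.3, scipy 1.17.1 and matplotlib 3.10.9 were used.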

Additional observations from a re-analysis of the deposited data

How the results depend on the processing

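Depth is unknown in TPM, and each genotype was 1 sample, so no alternative bears on variation between embryos. Shares count cells at the stated TPM, not cells that lack a factor. No paired analysis was possible because label numbers name individual cells and no result rests on a statistical test. Of 234 differences of members computed under alternatives, 215 kept their sign, and all 87 whose reported value passed 1 log2 unit kept their sign, 74 of them past 1. The epicardial-like alternatives were chosen after seeing the data.

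A pseudocount of 10 lowered the members higher by at least 1 log2 unit to 1 in endothelial-like, 1 in epicardial-like and 0 in cKO cells, and 0.1 raised the last to 2 (Zeb1 and Prrx1). As a log2 ratio of mean TPM, with 1 added to each mean, the counts lower were 1 in endothelial-like and 1 in epicardial-like cells. By that ratio 2 members were higher in the cKO. Clustering on the 1000 most variable genes gave no epicardial class and an endothelial class of 11 control cells in batch 1 and 26 in batch 2, so other cells were compared. There 1 member was lower (Msx2, -1.07) and Zeb1 differed by 0.56. Batch 2 alone gave 1 lower member in epicardial-like cells. Without a filter on low values the background of genes higher was 11%, 10.8% and 4.67% in the endothelial-like, epicardial-like and cKO comparisons and of genes lower 1.61%, 1.40% and 0.875%. With a TPM of at least 1 in most cells of either group it was 53.5%, 54.2% and 27.8% higher, and 4.27% lower in the cKO. The 27 control cells with a member and 3 of 6 endothelial genes became 61 at any TPM above 0, 7 in batch 1 alone and 62 with 1 endothelial gene. In each case the cause was not tested beyond what the alternative itself changes.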

Other observations

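Emcn, an endothelial sialomucin, was below 1 TPM in 3 of the 22 control endothelial-like cells, all from batch 1 and singled out after their values were seen, although the class median was 316 TPM and Pecam1, Cdh5 and Tek were detected in each of them. One had Msx1 at 58.6, Sox9 at 68.6 and Zeb2 at 47.6 TPM. Another had Snai1 at 82.9, Snai2 at 258, Msx1 at 30.2, Sox9 at 67.1 and Zeb1 at 58.6 TPM, the highest Snai2 of the class, with Kdr and Tie1 also below 1 TPM. The third had Zeb1 at 104 and Sox9 at 7.49 TPM with no Snai1, Snai2, Twist1 or Msx1 detected. The first and second were the 2 endothelial-like cells whose Sox9 reached the epicardial-like range. The 3 cells had 9270, 9970 and 10769 detected genes. Hapln1, a matrix link-protein gene of the cushion that served as a class marker, lay between 328 and 361 TPM in all of them. That is inside the range of 43.6 to 552 TPM over the class, so it does not set them apart.

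A single epicardial-like cell of batch 2, also named after its values were seen, held 6 members, with Snai2 at 60.6, Twist1 at 23.3, Msx1 at 35.8 and Sox9 at 93.3 TPM, and its Wt1, a zinc-finger factor of the epicardium, was at 6.84 TPM beside a class median of 263. It was the only epicardial-like cell with Msx1 detected, and Cdh5 was at 0.232 TPM in it.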
